A study of Mus musculus with 6 samples.

Results

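Oxt and Avp, the genes of oxytocin and vasopressin, were followed in every section of a spatial RNA sequencing series of the ageing mouse brain. These are 2 of the 32285 genes in the deposited matrices, and they were picked by their symbols. The series holds 6 coronal sections, 16 µm thick, from male mice of the inbred strain C57BL/6J, and the labels give no allele or treatment for any group. Young mice were 6 months old, middle mice 18 months and old mice 21 months, with 2 sections per age (young 1, young 2, middle 1, middle 2, old 1 and old 2). Since the labels name 2 males per age, a section is counted as 1 animal, and p-values measure the spread between these sections. Visium captures RNA from a tissue section on an array of barcoded spots, and each transcript captured by a spot is counted once through its unique molecular identifier (UMI). A spot can hold several cells of different types, so fewer peptide cells and less RNA per cell cannot be told apart in any value below.

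Oxytocin drives milk ejection and the contractions of labour and acts in the brain on social behaviour, and vasopressin makes the kidney retain water and constricts blood vessels. Both are short peptides cut from precursors that also hold a carrier protein, neurophysin. They are made mainly by large neurosecretory neurons of the paraventricular and supraoptic nuclei of the hypothalamus, each of which makes chiefly one of them and sends its axon to the posterior pituitary. Smaller neurons of the paraventricular nucleus project within the brain, and vasopressin is also made in the suprachiasmatic nucleus, the circadian clock. These nuclei are compact, so whether a coronal section meets them depends on where it was cut.

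Both genes lie close together on chromosome 2 and face each other. On GRCm38 (GENCODE M21), Oxt (ENSMUSG00000027301) runs from 130576173 to 130577054 on the plus strand and Avp (ENSMUSG00000037727) from 130580620 to 130582554 on the minus strand, with 3565 bases between them. Their promoters are shown because the results turn on which spots hold one transcript, the other or both. The sequences are the 250 bases before each RefSeq start site on GRCm38.p6, 5′ to 3′ on the gene's own strand. They are chr2:130575919-130576168 (plus strand) for Oxt and chr2:130582589-130582838 (minus strand) for Avp. Capitals mark matches to AGGTCA, the core site of nuclear receptors, or to CACGTG, the E-box bound by the clock proteins, on either strand.
Oxt promoter: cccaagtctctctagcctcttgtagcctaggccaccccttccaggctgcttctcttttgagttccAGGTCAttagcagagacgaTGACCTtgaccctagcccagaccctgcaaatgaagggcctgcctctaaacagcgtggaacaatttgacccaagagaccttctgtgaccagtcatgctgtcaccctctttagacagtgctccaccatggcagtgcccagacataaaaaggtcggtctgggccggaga
Avp promoter: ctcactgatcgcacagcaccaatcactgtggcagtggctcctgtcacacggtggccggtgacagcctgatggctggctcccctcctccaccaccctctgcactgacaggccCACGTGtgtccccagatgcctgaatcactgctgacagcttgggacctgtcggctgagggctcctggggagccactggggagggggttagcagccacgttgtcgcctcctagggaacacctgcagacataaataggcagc

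The Oxt promoter holds AGGTCA at 2 places, which begin 185 and 166 bases before the start, and the Avp promoter holds none. Of 32851 RefSeq promoters of the same length, 14.0% hold AGGTCA at least once and 1.36% at least 2 times. The Avp promoter holds CACGTG once, 139 bases before the start, a motif found in 6.02% of promoters and not in that of Oxt. Neither promoter holds TGACGTCA (1.55% of promoters), the cyclic AMP response element, or TATAAA (12.4%). These matches describe letters in the reference and were not tied to any measurement here.

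The second exons, which encode most of neurophysin, are nearly the same in both genes and are shown because shared sequence bears on how reads are told apart. They come from GENCODE M21 on GRCm38, chr2:130576591-130576792 (plus strand) for Oxt and chr2:130581056-130581257 (minus strand) for Avp. Capitals mark the 9 of 202 bases that differ, an identity of 95.5%.
Oxt exon 2: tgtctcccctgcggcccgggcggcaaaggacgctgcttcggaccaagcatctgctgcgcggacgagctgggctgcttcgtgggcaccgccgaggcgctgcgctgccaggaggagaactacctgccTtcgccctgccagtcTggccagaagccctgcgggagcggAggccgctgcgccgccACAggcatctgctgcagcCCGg
Avp exon 2: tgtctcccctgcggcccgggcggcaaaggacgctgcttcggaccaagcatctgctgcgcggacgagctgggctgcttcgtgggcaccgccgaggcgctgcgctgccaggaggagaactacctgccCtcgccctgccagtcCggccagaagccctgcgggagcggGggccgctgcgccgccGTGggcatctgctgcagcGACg

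The longest run that the 2 transcripts share is 127 bases. It ends 255 bases before the 3′ end of the 537-base Oxt transcript and 307 bases before that of the 577-base Avp transcript. The assay reads near the 3′ end, where the last 300 bases of Oxt share at most 45 bases in a row with the Avp transcript and those of Avp at most 23 with the Oxt transcript. Spots rich in one transcript with few UMIs of the other occurred for both genes, as given below.

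The sections held 2573 to 2973 spots and 60939185 to 77557934 UMIs each, with a median of 20370 to 30093 UMIs per spot. Spots under 500 UMIs were left out, 1 each in middle 2 and old 2, and 16741 remained. Middle 2 and old 2 were on slide 2 and the other 4 sections on slide 1. The 3 sections numbered 1 stand apart from the 3 numbered 2 in both genes, as the next paragraphs show. Some results that rest on single sections are given with and without them, and named calls lost without old 1 are listed below.

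Oxt was abundant in 3 sections and close to absent in the other 3. Its level was 70.0 CPM in young 1, 0.425 in young 2, 23.6 in middle 1, 0.864 in middle 2, 513.8 in old 1 and 0.853 in old 2. CPM are the gene's UMIs scaled to a common total of the section or of the spots summed. In UMIs these levels were 5382, 33, 1803, 65, 35467 and 52. Each age thus had 1 section with much Oxt and 1 with hardly any, and the ages overlapped throughout.

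Spots with at least 20 UMIs of the gene are called Oxt-high. There were 31 in young 1, 16 in middle 1 and 85 in old 1, and 0 in young 2, middle 2 and old 2. As a share of spots this was 1.205% in young 1 (exact 95% interval 0.820 to 1.71), 0.585% in middle 1 (0.335 to 0.948) and 2.86% in old 1 (2.29 to 3.52). The interval of old 1 lies above the other 2, which overlap. A count of 0 allows a share of up to 0.107% in young 2 and in middle 2 and 0.105% in old 2, where no spot had more than 3 Oxt UMIs. Intervals and limits cover counting error only.

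Most Oxt lay in these few spots. They held 79.5% of the section's Oxt UMIs in young 1, 77.9% in middle 1 and 92.7% in old 1. The median Oxt-high spot had 101 UMIs in young 1, 54.5 in middle 1 and 81 in old 1, and the mean was 138 ± 124 (SD over 31 spots), 87.8 ± 80.2 (16 spots) and 387 ± 671 (85 spots). The medians of the high spots were of like size, and old 1 differed by a tail of very rich spots. The richest spot held 585 UMIs in young 1, 280 in middle 1 and 4381 in old 1, where 21 spots had at least 500 and 8 at least 1000. In that spot of old 1 Oxt made up 9.75% of all 44917 UMIs, and the 10 richest spots held 52.4% of the section's Oxt, against 52.2% in young 1 and 68.6% in middle 1.

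Avp showed the same order of sections with a smaller range. Its level was 111.4 CPM in young 1, 2.99 in young 2, 93.2 in middle 1, 6.07 in middle 2, 209.4 in old 1 and 3.46 in old 2, from 8570, 232, 7111, 457, 14455 and 211 UMIs. Again each age had 1 high and 1 low section. Avp-high spots, with at least 20 Avp UMIs, numbered 25 in young 1, 1 in young 2, 38 in middle 1, 3 in middle 2, 74 in old 1 and 0 in old 2. Their share was 0.972% (0.630 to 1.43), 1.39% (0.985 to 1.90) and 2.49% (1.96 to 3.11) of spots in young 1, middle 1 and old 1. The intervals of young 1 and middle 1 overlap, and that of old 1 lies above both.

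The Avp-high spots held 85.1%, 83.4% and 85.6% of the Avp UMIs of young 1, middle 1 and old 1. Their median was 53 UMIs in young 1, 77 in middle 1 and 60 in old 1, and their mean 292 ± 472 (SD, 25 spots), 156 ± 169 (38 spots) and 167 ± 257 (74 spots). The richest spot had 1908 Avp UMIs in young 1, where 10 spots held 78.9% of the section's Avp, 615 in middle 1 and 1563 in old 1. Avp was thus most concentrated in young 1, which had fewer Avp-high spots than middle 1 but a higher level.

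**Figure D1:**
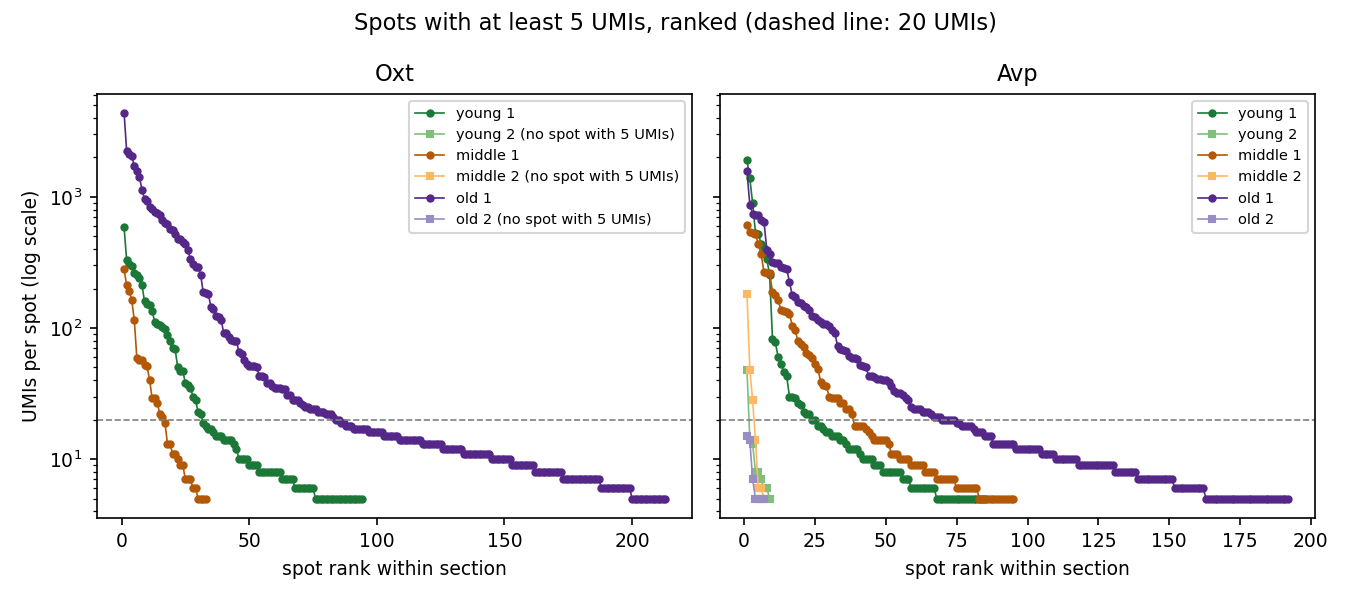
Spots with at least 5 UMIs, ranked within each section by their UMIs of Oxt (left) and Avp (right), with the rank on the horizontal axis, UMIs per spot on a log vertical axis, 1 line per section and a dashed line at 20 UMIs. The lines of young 1, middle 1 and old 1 start at 585, 280 and 4381 Oxt UMIs, and no spot of young 2, middle 2 or old 2 reaches 5.

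Up to 100 UMIs the order of the 3 rich sections did not turn on the threshold. With at least 10 UMIs there were 49, 22 and 152 Oxt spots and 45, 58 and 117 Avp spots in young 1, middle 1 and old 1, and with at least 100 there were 16, 5 and 39 Oxt spots and 9, 17 and 30 Avp spots. Among the very richest Avp spots it did turn, with 5, 4 and 7 spots of at least 500 UMIs and 2, 0 and 1 of at least 1000. Just under the threshold, at 15 to 19 UMIs, lay 8, 1 and 23 spots for Oxt and 8, 7 and 13 for Avp, and just above it, at 20 to 25 UMIs, 2, 2 and 14 for Oxt and 5, 3 and 16 for Avp. With each spot thinned to 10000 UMIs and 8 UMIs as the threshold, the Oxt-high spots numbered 38, 16 and 92 and the Avp-high spots 28, 41 and 79.

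The labels place all 6 sections at the same level, section 71 of the atlas and -1.655 mm from bregma. Genes that mark single hypothalamic nuclei nevertheless differed between sections by much more than counting. Pmch, the peptide precursor of the melanin-concentrating hormone neurons of the lateral hypothalamus, measured 0.637 CPM in young 1, 185 in young 2, 590 in middle 1, 929 in middle 2, 0.710 in old 1 and 443 in old 2. Hcrt, the orexin precursor of the same area, ran in parallel with 1.07, 77.4, 159, 224, 0.681 and 75.0. Young 1 and old 1, with much Oxt, had almost none of either, and young 2, middle 2 and old 2 had the reverse. Middle 1 held all of these peptides, with Oxt at its lowest among the 3 rich sections.

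Among listed markers of the paraventricular nucleus, Otp and Trh followed Oxt over a narrower range, and others did not. Otp, a homeobox factor needed to form these neurons, measured 5.49 CPM in young 1, 2.42 in young 2, 4.20 in middle 1, 3.22 in middle 2, 7.50 in old 1 and 3.02 in old 2. Trh, the thyrotropin-releasing hormone precursor, measured 13.5, 5.21, 10.8, 8.23, 15.9 and 6.97 in the same order. Both were higher in young 1, middle 1 and old 1 than in any other section. Sim1, a factor of the same lineage, measured 0.832, 0.529, 0.538, 0.399, 1.83 and 0.574, so that middle 1 lay among the sections poor in Oxt. Nhlh2, another listed factor, measured 2.33 in young 1 and 5.58 in young 2, and Pou3f2 12.3 in old 1 and 13.4 in young 2. The 8 factors listed for the paraventricular and supraoptic nuclei summed to 134 to 146 CPM, with no split between rich and poor sections. Of 6 genes listed for the suprachiasmatic nucleus, Nms, Prok2, Six6 and Lhx1 were at 0.522 CPM or less in every section, while Vip stood at 33.1 to 40.7 and Grp at 7.66 to 16.0. Vip and Grp are also made by cortical neurons. Nr5a1, a marker of the ventromedial nucleus, stood at 1.21 in middle 1 and at 0.0164 to 0.221 elsewhere. Hippocampal spots made up 2.25% of young 1 and 4.18% to 6.73% of the other sections, so young 1 also differs in what it holds outside the hypothalamus.

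**Figure D2:**
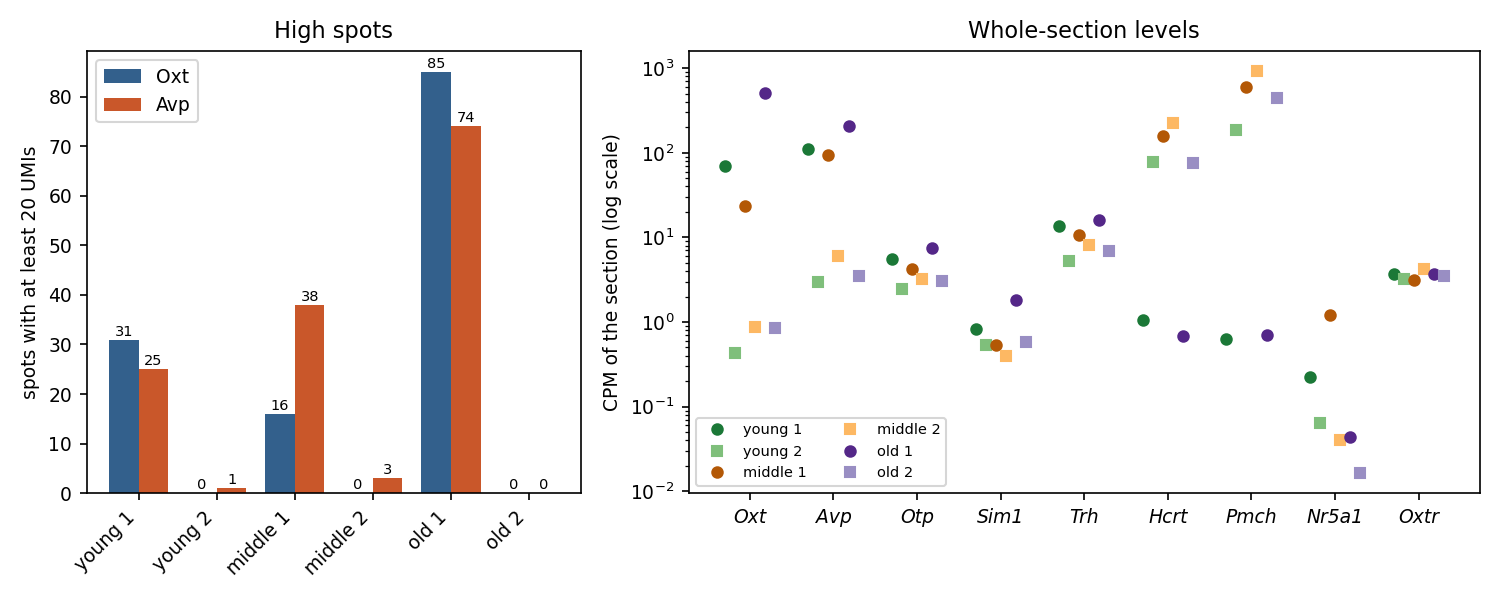
Number of Oxt-high and Avp-high spots per section (left) and whole-section CPM of Oxt, Avp, genes that mark hypothalamic nuclei and Oxtr (right, log axis), with 1 bar or point per section. Young 1 and old 1 have 31 and 85 Oxt-high spots and under 1.1 CPM of Pmch and Hcrt, and young 2, middle 2 and old 2 have no Oxt-high spot and 75.0 or more of Hcrt.

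Spots were grouped by their transcripts without the use of Oxt and Avp, and 2787 spots in 2 of the 19 clusters were named hypothalamus-like from markers such as Baiap3, Resp18, Dlk1 and Otp. They numbered 488, 313, 502, 535, 427 and 522 in young 1, young 2, middle 1, middle 2, old 1 and old 2. Most UMIs of both genes in the rich sections came from these spots. Hypothalamus-like spots held 85.9% of the Oxt UMIs of young 1, 81.0% of middle 1 and 63.2% of old 1, and 84.8%, 89.7% and 80.9% of the Avp UMIs. Of the 187 spots high for either gene, 144 were hypothalamus-like.

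Within hypothalamus-like spots the same 3 sections were rich and the same 3 poor. Oxt measured 418, 1.49, 150, 1.79, 2752 and 1.89 CPM there, and Avp 658, 19.5, 654, 26.1, 1436 and 7.33. The sections poor in Oxt thus had as many hypothalamus-like spots as the rich ones, apart from young 2, but almost none of the peptide in them.

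The high spots outside the hypothalamus-like clusters were not spread evenly. In old 1, 8 Oxt-high spots with 10677 Oxt UMIs fell in the choroid plexus and ventricle-like cluster, and 17 with 586 UMIs in an unnamed cluster led by Calb2 and Gbx2, which also held 3 Oxt-high spots of young 1. The richest Oxt spot of all, with 4381 UMIs, was one of the 8. It also held 145 Avp UMIs, 14 of Otp, 96 of Nnat, a hypothalamic marker, 20 of Ccdc153 and 9 of Tmem212, which are genes of ciliated ependymal cells. That spot therefore carried markers of both the paraventricular lineage and the ventricle wall.

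In young 1, 4 Avp-high spots with 823 Avp UMIs fell in the meninges-like cluster. The richest of them held 440 Avp UMIs with 251 of Ptgds, 10 of Mgp and 8 of S100a8. One spot was out of place. In middle 1 a spot of the hippocampal cluster held 211 Oxt and 11 Avp UMIs, the second highest Oxt value of the section. It had 33 UMIs of Hpca, a hippocampal gene, where the section's mean at that depth is 13.5, and 4 of Fibcd1, but 1 of Otp, 0 of Sim1, 0 of Baiap3 and 7 of Resp18, where the mean is 7.85. The spot was singled out after its values were seen, and its position in the tissue was not used here.

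Low Oxt counts also occurred outside the hypothalamus-like spots. In young 1, young 2, middle 1, middle 2, old 1 and old 2 at least 1 Oxt UMI was found in 6.01%, 1.77%, 4.97%, 2.77%, 33.7% and 2.48% of isocortex-like spots, and in 46.7%, 2.56%, 22.9%, 3.36%, 59.7% and 3.26% of hypothalamus-like spots. Thinned to 10000 UMIs per spot, the shares were 0.977%, 0, 2.00%, 0.428%, 12.7% and 0.905% in isocortex-like spots and 35.0%, 1.44%, 16.3%, 2.17%, 46.9% and 2.18% in hypothalamus-like spots. The cortex is known to make little oxytocin, and old 1 had the highest share there. Where these UMIs came from was not tested. The median depth was 31476 to 43675 UMIs in isocortex-like and 14890.5 to 20105 in hypothalamus-like spots, and 1 to 4 and 28 to 109 spots per section were too shallow to thin. In young 2, middle 2 and old 2 the unthinned share for Oxt in hypothalamus-like spots lay close to that of the cortex. Avp UMIs were found in 1.58% (old 2) to 19.7% (old 1) of isocortex-like spots. In striatum-like spots the share for Avp ran from 5.77% (middle 2) to 26.0% (young 1).

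Oxt and Avp shared spots to a degree that differed between sections. Of the Oxt-high spots, 10 of 31 in young 1, 14 of 16 in middle 1 and 62 of 85 in old 1 were also Avp-high, which is 32.3%, 87.5% and 72.9%. Of the Avp-high spots, 40.0%, 36.8% and 83.8% were also Oxt-high. At this threshold each gene had its own spots for the most part in young 1. In middle 1 the Oxt-high spots lay almost wholly within a larger set of Avp-high spots, and in old 1 most high spots held both. The threshold was the same 20 UMIs in sections with 70.0, 23.6 and 513.8 CPM of Oxt. The part of the level in the overlap was not tested.

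A spot high for one gene with at least 4 times the UMIs of the other is called dominant for it. UMIs of a 3′ assay are not scaled by length, and these transcripts are of like length. There were 23 Oxt-dominant and 20 Avp-dominant spots with 3 mixed ones in young 1, 2, 23 and 15 in middle 1, and 27, 5 and 65 in old 1. The Oxt-dominant spots of young 1 held 3673 Oxt and 171 Avp UMIs, and its Avp-dominant spots 6813 Avp and 287 Oxt UMIs. The richest Oxt spot of young 1 had 585 Oxt and 8 Avp UMIs. Over all spots the correlation of log counts was 0.51 in young 1, 0.75 in middle 1 and 0.84 in old 1, and 0.08, 0.12 and 0.10 in young 2, middle 2 and old 2. Spots share their library and their depth, so this is a description.

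**Figure D3:**
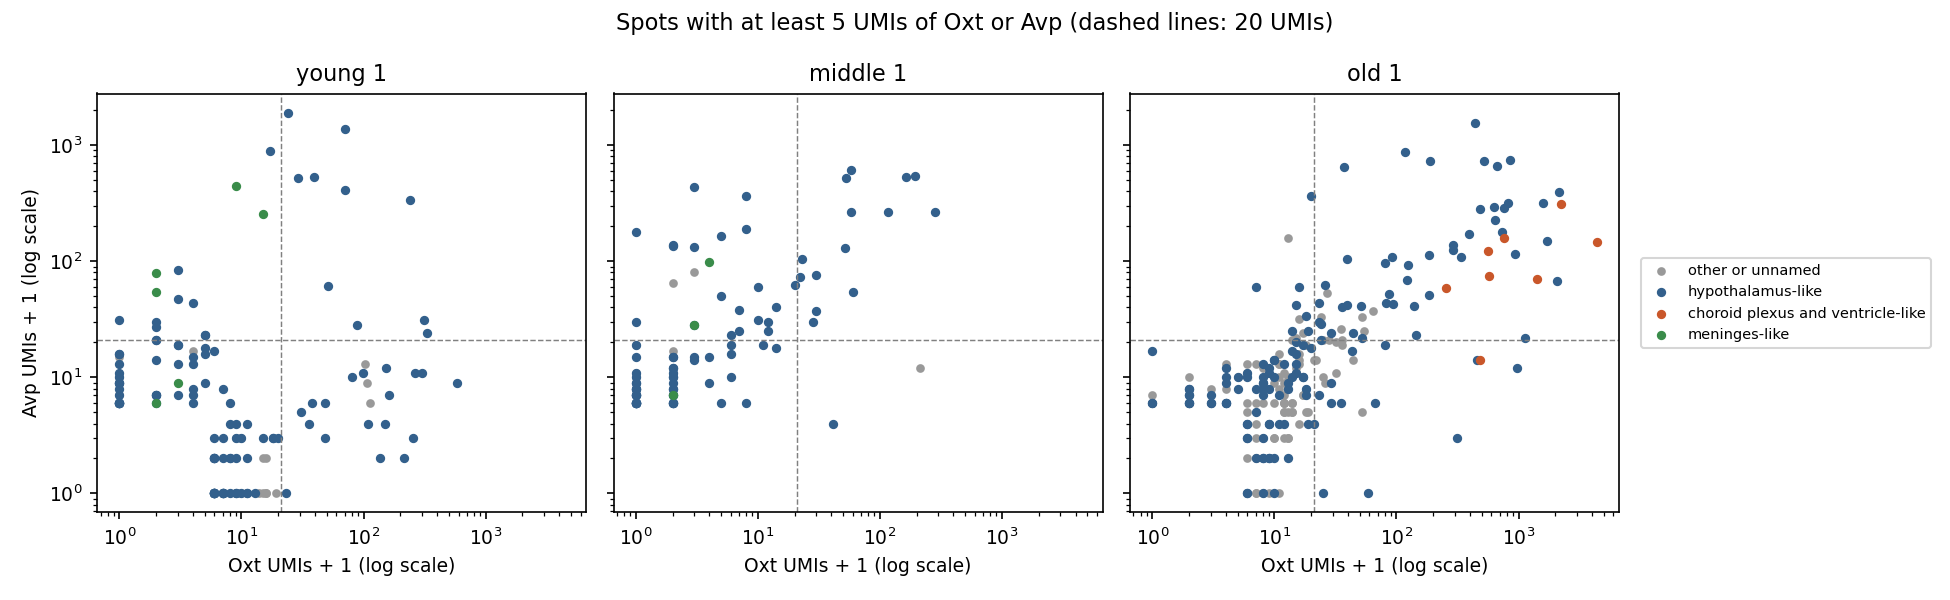
Oxt UMIs (horizontal) and Avp UMIs (vertical) of spots with at least 5 UMIs of either gene, both plus 1 on log axes, in young 1, middle 1 and old 1, coloured by the cluster name, with dashed lines at 20 UMIs. Both genes exceed 20 UMIs in 10, 14 and 62 spots, and young 1 shows separate Oxt-rich and Avp-rich spots.

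The poor sections held 4 high spots, all for Avp. The 1 Avp-high spot of young 2 had 48 Avp UMIs and 0 Oxt UMIs, with 67 UMIs of Gal, the galanin precursor, where the mean at that depth is 0.228. The richest of the 3 Avp-high spots of middle 2 had 183 Avp UMIs with 3 of Otp, where the mean is 0.0449, and 4 of Gal, where it is 0.233. Old 2 had none, and its richest Avp spot had 15 UMIs.

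The design compares ages, and neither gene passed the test for age. In whole sections the log2 fold change of Oxt was -1.55 (SE 3.57) for middle minus young, 2.79 (SE 3.61) for old minus young and 4.34 (SE 3.91) for old minus middle, with edgeR adjusted p of 0.947, 0.807 and 1. For Avp it was -0.23 (SE 2.85), 0.82 (SE 2.85) and 1.05 (SE 2.87), with adjusted p of 0.992, 0.944 and 1. In hypothalamus-like spots Oxt changed by -1.51 (SE 3.87), 2.63 (SE 3.95) and 4.14 (SE 4.25) and Avp by -0.02 (SE 3.16), 1.01 (SE 3.19) and 1.03 (SE 3.19), with adjusted p of 0.927 or more. All of these differences were smaller than their standard error, except that of Oxt for old minus middle in whole sections.

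Of all genes tested, 0.0679% were called for middle minus young, 0.164% for old minus young and 0% for old minus middle in whole sections, and 0.0556%, 0.0625% and 0% in hypothalamus-like spots. For old minus middle edgeR called 0 genes in either set, with 361 and 289 at an unadjusted p under 0.05, and DESeq2 called 0 and 1. The number of high spots gave an exact permutation p of 1 for Oxt and 0.933 for Avp over 90 assignments of the sections to ages, two-sided, where the smallest possible value is 0.0667. Within slide 1 the levels of Oxt were 70.0 and 0.425 CPM in the young sections, 23.6 in middle 1 and 513.8 in old 1, with old 1 above the other 3. Within slide 2 they were 0.864 in middle 2 and 0.853 in old 2, and Avp stood at 6.07 and 3.46, with 1 section per age and no test. The direction between ages was set by single sections. Leaving out old 1 turned old minus young in whole sections to -5.44 for Oxt and -4.12 for Avp, leaving out young 1 raised them to 9.21 and 5.13, and leaving out young 2 turned that of Avp to -0.15.

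The receptors showed no such split between sections. Oxtr, the oxytocin receptor, measured 3.12 to 4.28 CPM and Avpr1a, the vascular and brain receptor of vasopressin, 0.322 to 0.598, while Avpr1b and Avpr2 were at or below 0.0664. Their levels thus moved far less between sections than those of the peptides.

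Next, all other genes were compared between high spots and the remaining hypothalamus-like spots of the same section, with the section as a block. For Oxt this set the sums of 31, 16 and 85 high spots in young 1, middle 1 and old 1 against 449, 467 and 361 spots that were high for neither gene. Of 13234 genes, 7.62% were called at an edgeR adjusted p under 0.05, 3.44% higher and 4.18% lower in Oxt-high spots. The high spots were chosen by Oxt, so Oxt is not tested. Avp, given as values only, stood at 8996, 13327 and 5861 CPM in the Oxt-high spots and at 68.2, 77.2 and 103 in the others.

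Factors that build these neurons rose in Oxt-high spots. Of 7 tested transcription factors of the paraventricular and supraoptic nuclei, 4 were higher and 0 lower, with a median log2 fold change of 1.76 against -0.00338 over all genes. Sim1 measured 42.0, 15.2 and 33.0 CPM in the Oxt-high spots of young 1, middle 1 and old 1 and 2.99, 3.70 and 3.91 in the others, a log2 fold change of 3.14 (SE 0.33, adjusted p = 1.08e-08). Otp measured 188, 118 and 171 against 24.6, 27.9 and 15.9, a change of 2.91 (SE 0.18, adjusted p = 8.45e-09). Both were higher in every section with no overlap. Pou3f2, a POU factor of the same lineage, rose by 2.06 (SE 0.24) and Nhlh2 by 1.76 (SE 0.37), the latter mainly in young 1 and old 1. Creb3l1 had 1.26 (SE 0.56, adjusted p = 0.193), Arnt2, the partner of Sim1, 0.21, and Fezf1 -0.34, and none of these passed the test. Otp no longer passed when spots with under 2 UMIs of each gene were the comparison (adjusted p = 0.068).

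Genes of peptide processing changed by smaller amounts. Of 8 that make hormones from precursors, 3 were higher and 0 lower, with a median of 0.29. Pcsk1, a convertase that cuts precursors, measured 42.0, 72.1 and 60.5 CPM against 18.4, 22.5 and 20.9, a log2 fold change of 1.44 (SE 0.19, adjusted p = 7.4e-07). Pam, which amidates the end of both peptides, rose by 0.46 and Pcsk1n, an inhibitor of that convertase, by 0.30. Of 11 secretory granule genes, 3 were higher and 0 lower, with a median of 0.04, close to all genes. These were Resp18 at 0.89, Ptprn at 0.59 and Scg3 at 0.34, while the granins Chga, Chgb and Scg2 did not pass the test. Resp18 and Pcsk1 were higher in each of the 3 sections and kept their calls under all 11 alternatives, while Pam and Scg3 lost theirs under 7 and Pcsk1n under 4.

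Among 12 other peptides of these nuclei, 1 was higher and 3 lower, with a median of -0.06. Gal rose by 1.21 (SE 0.22, adjusted p = 0.000654), from 16.1, 34.6 and 21.6 CPM in the other spots to 25.2, 140 and 42.0. Vip fell by 3.08, Nts by 2.92 and Cck by 0.64, and of these Vip is known from the suprachiasmatic nucleus. Vip lost its call under 2 of 10 alternatives (DESeq2 and without old 1), Cck under 3 of 11 and Nts under 1 of 11. Trh measured 74.0, 201 and 310 in the high spots against 69.4, 62.8 and 25.8 in the others, and Crh, the corticotropin-releasing hormone, 28.6, 0 and 84.5 against 11.3, 5.65 and 9.46. Both differed between sections, and neither passed the test (log2 2.01, adjusted p = 0.5, and 2.28, adjusted p = 0.271).

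Of the 7 tested regulators of the vasopressin transcript and of the response to osmotic load, 2 were higher and 1 lower, with a median of 0.79. Caprin2, an RNA-binding protein known to bind Avp mRNA, measured 43.7, 26.6 and 30.5 CPM against 5.68, 5.54 and 6.76, a log2 fold change of 2.44 (SE 0.28, adjusted p = 7.39e-08). Rasd1, a small G protein induced by glucocorticoid, rose by 2.35 (SE 0.34), with 16.8, 19.0 and 43.5 against 6.17, 7.39 and 4.36, and without old 1 by 1.41 with an adjusted p of 0.34. Gadd45b fell by 1.66. The immediate early gene Fos measured 133, 22.8 and 59.0 against 47.4, 34.8 and 40.4 and did not pass the test. Receptors were scarce, and Oxtr fell by 1.91 (SE 0.58, adjusted p = 0.034) from 6 UMIs in high against 190 in other spots. Oxtr did not pass under 6 of its 10 alternatives. None of 5 steroid receptors passed.

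The leading genes were taken from called genes with at least 50 UMIs over the high spots and the same direction in every section. By size of change they were Ebf3, Ghrh, Sim1, Otp, Fkbp11, Rsph1, Caprin2, Fam183b, Gm19935 and Rasd1. Being higher in all 3 sections was thus part of the choice. Gm19935, a leading gene of the choroid plexus and ventricle-like cluster, lost its call under 4 of 11 alternatives, among them without old 1. Fam183b had 15 UMIs in the old 1 spot with 4381 Oxt UMIs, where the mean at that depth is 0.576. Ebf3, a transcription factor, measured 31.9, 22.8 and 35.5 CPM against 2.60, 4.57 and 1.35, a log2 fold change of 3.61 (SE 0.36, adjusted p = 8.45e-09). Ghrh, the growth hormone-releasing hormone known from the arcuate nucleus, measured 28.6, 125 and 10.0 against 2.89, 8.37 and 1.95, a change of 3.33 (SE 0.33). Ghrh was thus higher most of all in middle 1, the section with ventromedial and lateral markers. Fkbp11, a folding enzyme of the endoplasmic reticulum, rose by 2.87 (SE 0.32), with 28.6, 26.6 and 30.5 against 3.08, 7.07 and 3.15. Rsph1, a part of motile cilia, rose by 2.60 (SE 0.39), but its values of 13.4 against 4.82 in young 1 and 70.0 against 6.31 in old 1 show that old 1 leads, and without old 1 it changed by 1.23 with an adjusted p of 0.64.

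Chosen likewise, with at least 50 UMIs over the other spots, the genes that fell most had no UMI in Oxt-high spots. Samd3 and Nxph2 had 71 UMIs each in the other spots, 2900041M22Rik 66, and Chrna2, a nicotinic receptor subunit, and Gm9732 63 each. Against a floor of 3 counts over all high spots they were at least 2.58-fold (Samd3, Nxph2), 2.40-fold (2900041M22Rik) and 2.29-fold lower (Chrna2, Gm9732). With so few UMIs the calls were not firm, and Nxph2 lost its call under 7 of 9 alternatives, Gm9732 under 4 of 8, 2900041M22Rik under 2 of 6, Chrna2 under 2 of 5 and Samd3 under 1 of 8.

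**Figure D4:**
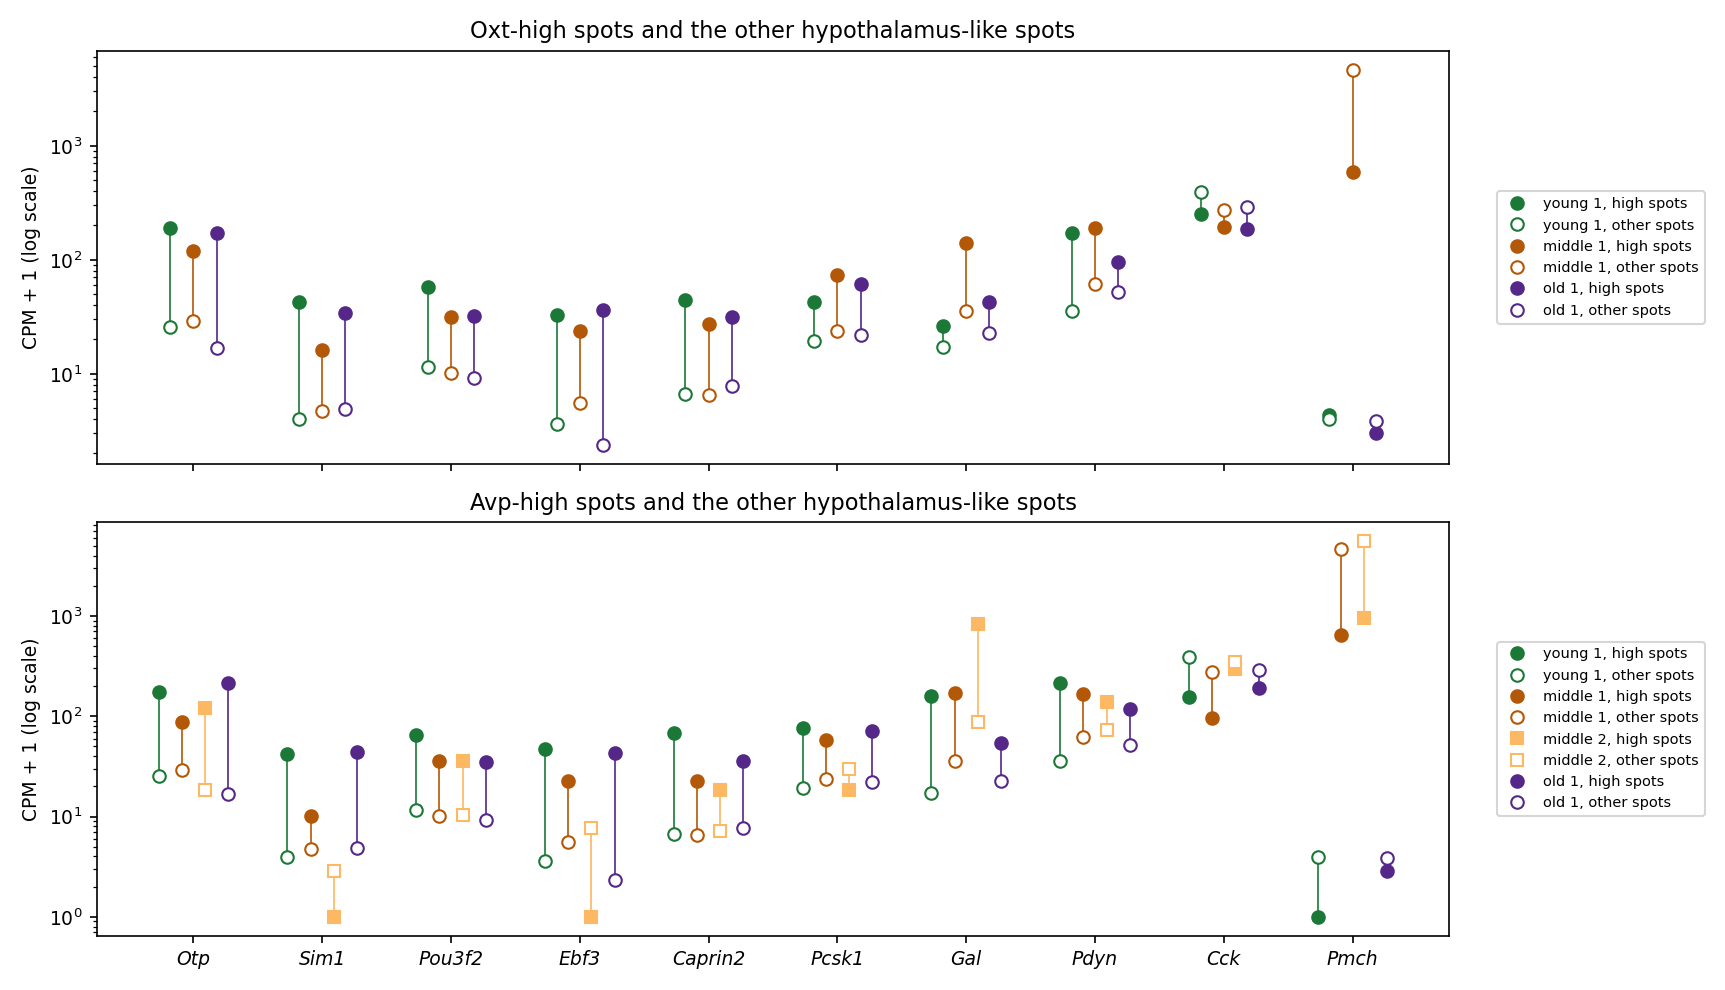
CPM plus 1 (log axis) of 10 genes in high spots (filled) and in the other hypothalamus-like spots of the same section (open), joined by a line, for Oxt-high spots (upper panel) and Avp-high spots (lower panel). Otp, Sim1, Pou3f2 and Caprin2 lie higher in the Oxt-high spots of all 3 sections, and of the sections shown Pmch is abundant only in middle 1 and middle 2.

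The same comparison for Avp used 25, 38, 3 and 74 high spots of young 1, middle 1, middle 2 and old 1 against 449, 467, 532 and 361 spots. Of 13240 genes 8.19% were called, 3.84% higher and 4.35% lower in Avp-high spots. It shares 86 high spots and most other spots with the comparison for Oxt, so the calls are not independent of those above. In middle 2 the 3 spots are so few that 1 UMI is worth 17.2 CPM. Oxt, given as values only, stood at 2995, 2332, 17.2 and 18611 CPM against 60.4, 16.0, 1.72 and 113.

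The lineage factors were again 4 higher and 0 lower of 7 tested, with a median of 1.52 against -0.0161 over all genes. Otp measured 175, 87.4, 121 and 214 CPM against 24.6, 27.9, 17.2 and 15.9, a log2 fold change of 2.81 (SE 0.18, adjusted p = 1.25e-22). Without middle 2 the change was 2.83 with an adjusted p of 0.16, although all 3 remaining sections were higher. Pou3f2 measured 64.3, 34.6, 34.5 and 34.0 against 10.5, 9.13, 9.42 and 8.26, a change of 2.16 (SE 0.27, adjusted p = 1.38e-12). Both factors were higher in the Avp-high spots of all 4 sections. Sim1 rose by 2.97 and Nhlh2 by 1.52.

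Of the peptides 2 of 12 were higher and 4 lower, with a median of 0.28. Gal measured 158, 171, 828 and 53.7 CPM against 16.1, 34.6, 86.5 and 21.6, a log2 fold change of 2.46 (SE 0.29, adjusted p = 0.000222), and 0.19 as adjusted p without middle 2. Pdyn, the dynorphin precursor that vasopressin neurons are known to make, measured 211, 164, 138 and 117 against 34.5, 60.7, 71.7 and 51.2, a change of 1.61 (SE 0.15, adjusted p = 4.34e-21), and without middle 2 1.70 with an adjusted p of 0.126. Pdyn also missed the threshold with high spots of at least 50 UMIs (2.07, adjusted p = 0.058) and within the cluster led by Pmch and Hcrt (2.95, adjusted p = 0.262). Both were higher in all 4 sections. Cck fell by 1.02, Nts by 1.71 and Vip by 2.18, and Penk was the fourth that fell. Nts lost its call under 5 of 12 alternatives, Vip under 2 of 11, and Cck and Penk under 1 of 12 each. In Oxt-high spots Pdyn had 1.52 (adjusted p = 0.15).

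Processing genes were 2 higher and 0 lower of 8 (median 0.25), Pcsk1 by 1.59 (SE 0.20) and Pam by 0.46, and granule genes 1 higher and 0 lower of 11 (median 0.14), namely Ptprn by 0.53. Of the regulators 3 of 7 rose (median 0.59). Caprin2 measured 66.6, 21.8, 17.2 and 34.6 CPM against 5.68, 5.54, 6.14 and 6.76, a log2 fold change of 2.58 (SE 0.32, adjusted p = 2.1e-13), Rasd1 had 1.87 and Fos 0.59. Fos lost its call under 7 of 12 alternatives. Rasd1 again rested on old 1, without which it was 0.57 with an adjusted p of 0.76. Oxtr fell by 2.06 (adjusted p = 0.0191) from 5 against 286 UMIs and did not pass under 5 of 11 alternatives, and Pam not under 6 of 12.

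Chosen by the same rule, the largest rises in Avp-high spots besides Otp, Caprin2, Gal and Pou3f2 began with Fbln1 (2.57) and Vim (2.22). These are a matrix protein and an intermediate filament. Next came Tent5a (2.10), Nbl1 (2.04), Ahnak (2.01) and Scn9a (1.89), a voltage-gated sodium channel. Nbl1, a secreted antagonist of bone morphogenetic proteins, measured 115, 65.5, 51.7 and 58.7 CPM against 15.6, 16.5, 20.7 and 19.7. Scn9a measured 23.0, 25.5, 17.2 and 34.0 against 6.94, 7.07, 11.4 and 7.06. Fbln1, Nbl1 and Ahnak lost their calls within the cluster led by Pmch and Hcrt, and Nbl1 also with high spots of at least 50 UMIs. The 5 that fell most by that rule were nearly absent from high spots. Nxph2, Adam33 and Gm9732 had 0 UMIs, at least 2.52-fold, 2.56-fold and 1.80-fold lower, and lost their calls under 6 of 10, 4 of 7 and 6 of 9 alternatives. Mab21l1 had 1 UMI against 512, a 35.4-fold lower level (6.33 to 1403 by counting), and Barhl2, a homeobox factor, 1 against 296, 20.5-fold lower (3.65 to 812).

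Lists for neighbouring nuclei held genes that fell and genes that rose. Pmch fell by 2.72 and Hcrt by 3.67 in Avp-high spots, and only middle 1 and middle 2 carry much of either. Pmch measured 652 and 948 CPM in their Avp-high spots against 4666 and 5585 in the others. Of the arcuate list, Npy fell by 2.60 in Oxt-high and 1.49 in Avp-high spots while Ghrh rose by 3.33 and 2.03, and of the suprachiasmatic list Six6 rose by 2.82 and 2.61 while Vip fell. Within the cluster led by Pmch and Hcrt, Npy and Six6 lost their calls in both comparisons, and Npy turned direction in Avp-high spots. Ghrh lost its call in Avp-high spots with DESeq2 and without middle 1. Pomc had no call, with 604 CPM in the Avp-high spots of middle 1 against 33.2 in the others. The ventromedial list had no call. Of the habenular list Tac2 fell by 3.36 in Oxt-high spots and had no call in Avp-high spots, a difference that was not tested.

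**Figure D5:**
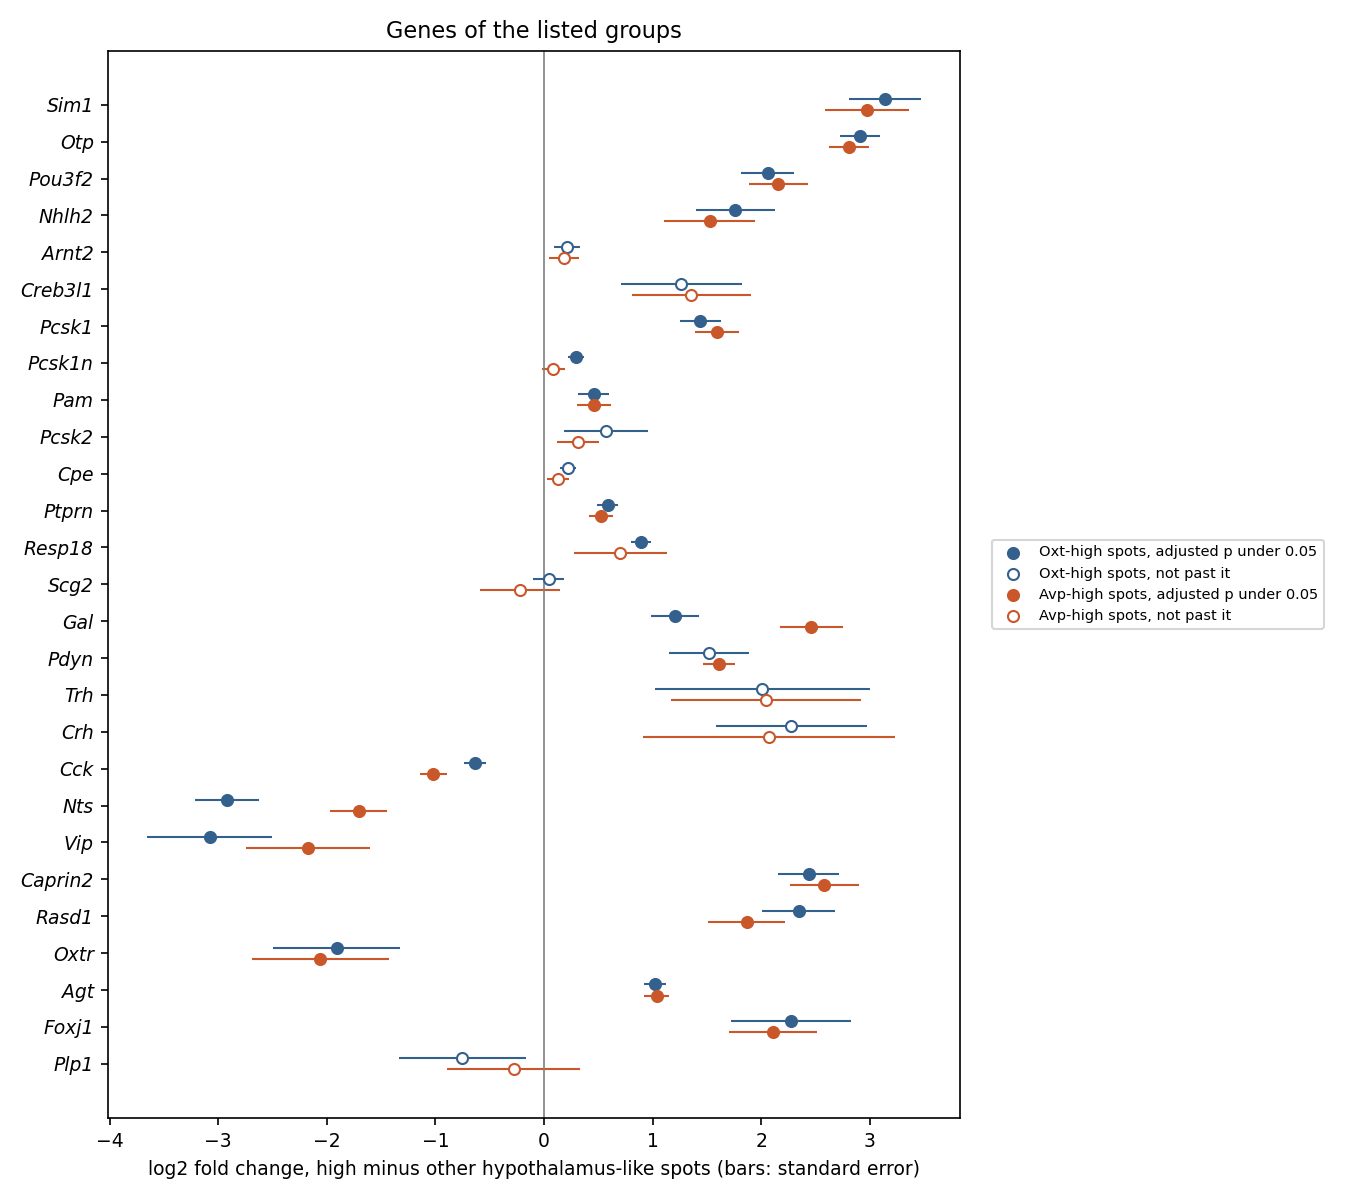
Log2 fold change, high minus other hypothalamus-like spots, of genes chosen from the lists in Oxt-high (blue) and Avp-high spots (orange), with bars of 1 standard error and filled points for an adjusted p under 0.05. Sim1 lies at 3.14 and 2.97, Otp at 2.91 and 2.81, Vip at -3.08 and -2.18 and Nts at -2.92 and -1.71. Of these genes only Sim1 kept its call in both kinds of spot under every alternative run.

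Markers of other cells moved with these spots. Of 5 astrocyte genes 2 were higher in Oxt-high and 4 in Avp-high spots, and the list summed to 1014 to 1294 and 1048 to 1491 CPM in high spots against 686 to 751 in the others. Agt, the angiotensinogen of astrocytes, rose by 1.02 and 1.04. Ependymal and tanycyte genes were 1 of 5 and 3 of 6 higher, but the list summed to 149 and 207 only in old 1, where 8 Oxt-high spots lie in the ventricle cluster. Foxj1, the regulator of motile cilia, measured 3.36, 7.59 and 43.0 against 3.95, 4.13 and 4.06. In Oxt-high spots within the cluster led by Pmch and Hcrt, Foxj1 had 0.38 and Agt 0.37, neither past the test. In Avp-high spots within that cluster all 4 astrocyte calls (Aqp4, Slc1a3, Gja1 and Agt) were lost, and so was that of Foxj1. Gja1 lost its call under 8 of 12 alternatives. Endothelial and mural genes had 0 and 2 calls of 6 (Cldn5 by 0.59, Acta2 by 1.57), and oligodendrocyte, microglia and choroid plexus genes none. The part of these cells in the results above was not tested. High spots of young 1 and middle 1 had a median of 17491.5 and 14950 UMIs against 18695 and 19235 in the other spots, and those of old 1 23148 against 18905.

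The calls depended on old 1 and on the tool. Without old 1 the counts were 94 genes for Oxt and 451 for Avp in place of 1008 and 1085, without young 1 they were 475 and 508, without middle 1 1104 and 672, and DESeq2 called 235 and 234. For Oxt-high spots, Ebf3, Ghrh, Sim1, Fkbp11, Caprin2, Fam183b, Pcsk1, Resp18, Pou3f2, Gal and, among genes that fell, Tac2 passed under every alternative run. For Avp-high spots, Caprin2, Pou3f2, Vim, Tent5a, Scn9a, Pcsk1, Sim1 and, among genes that fell, Mab21l1 did so. Of the named calls refitted without old 1, 17 of 33 in Oxt-high and 13 of 40 in Avp-high spots were lost. In Oxt-high spots these were Rsph1, Gm19935, Rasd1, 2900041M22Rik, Nxph2, Pcsk1n, Pam, Scg3, Ptprn, Nhlh2, Cck, Vip, Gadd45b, Oxtr, Six6, Slc1a3 and Foxj1. In Avp-high spots they were Nxph2, Adam33, Pam, Ptprn, Nhlh2, Vip, Rasd1, Fos, Oxtr, Gja1, Foxj1, Ccdc153 and Cldn5.

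Spots that hold chiefly one peptide were compared next, 23, 2 and 27 Oxt-dominant against 20, 23 and 5 Avp-dominant spots of young 1, middle 1 and old 1. Of 6458 genes 0.0774% were called, 5 genes, all lower in Oxt-dominant spots. Pdyn measured 100, 17.7 and 50.9 CPM in Oxt-dominant and 233, 171 and 271 in Avp-dominant spots, a log2 difference of -1.86 (SE 0.30, adjusted p = 0.043). Dlk1, a transmembrane protein of the Notch ligand family, measured 91.1, 17.7 and 249 against 201, 203 and 742, a difference of -1.51 (SE 0.25, adjusted p = 0.0487). Both were lower in Oxt-dominant spots in each of the 3 sections, but in middle 1 the level of 17.7 CPM is 1 UMI over 2 spots. One of these is the hippocampal spot described above, with 33227 of the 56637 UMIs. The other 3, Igf2, Hbb-bs and Myoc, are genes of meninges and blood, and 4 Avp-high spots of young 1 lie in the meninges-like cluster, whose part was not tested. Otp (-0.44) and Sim1 (-0.94) did not pass, with standard errors of 0.24 and 0.47. Without middle 1, or with DESeq2, 0 genes were called. Without old 1 there were 16 calls and without young 1 3, but neither Pdyn nor Dlk1 was among the 16. Pdyn lost its call under 3 of 6 alternatives (adjusted p of at most 0.186) and Dlk1 under 5 of 6 (at most 0.237).

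Across the spots of a section the gene whose log level was most like that of Oxt was Otp, with a mean correlation of 0.303 over the 6 sections among 14401 genes (0.543, 0.085, 0.412, 0.081, 0.664 and 0.035 in young 1, young 2, middle 1, middle 2, old 1 and old 2). It was followed by Gpx3, Dlk1, Resp18 and Trh at 0.268 to 0.240. For Avp the nearest were Trh (0.309), Otp (0.299), Dlk1 (0.282), Gpx3 (0.263) and Resp18 (0.247), and Gal stood at 0.236. Oxt and Avp correlated at 0.398 on the same measure. These values describe spots that share a library, and the high ones come from the 3 sections with high spots.

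A last measure shows how much of a gene's section total the high spots hold. The spots high for either gene were 46 in young 1, 40 in middle 1 and 97 in old 1, with 1.08%, 0.795% and 3.18% of all UMIs. They held 32.7%, 15.9% and 71.8% of the section's Otp UMIs, 43.8%, 14.6% and 57.9% of its Sim1 UMIs and 9.64%, 9.72% and 61.5% of its Trh UMIs. In old 1 these spots thus held most of the Otp, Sim1 and Trh of the section, and in young 1 and middle 1 they held a smaller share of each.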

How the data were processed

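The authors deposited UMI counts for 6 Visium sections, 1 value for each gene in each spot. Per the file headers these came from Space Ranger 1.3.1. The submitters' processing notes name Space Ranger 3.1 and mm10. Barcodes and gene symbols were in deposited tables of other content. Images and spot positions were not used here. Of 3389 distinct barcodes 1919 occur in all sections, and pairs of sections share 2082 to 2825. Columns of no sample numbered 0.

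Oxt, Avp, the gene lists, markers and tests were chosen with earlier results of these data known. Spots with at least 500 UMIs were kept and scaled to 10000, and 2000 variable genes, without Oxt, Avp, mitochondrial and haemoglobin genes, were scaled per section and used to cluster the spots (scanpy 1.11.5, 30 principal components, 20 neighbours, Leiden resolution 0.8). A cluster was named with at least 3 markers among 50 leading genes, 1 among the first 10 and 2 times those of the next region, a rule taken after clusters were known. It named 10 of 19 clusters, and 4123 spots stayed unnamed. Regions were thus set by transcripts and not by anatomy. Doublets do not apply to spots.

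UMIs were summed per section, or per section and kind of spot, and fitted in R 4.3.3 by edgeR 4.0.16 (TMM, filterByExpr, robust quasi-likelihood). Age was the only term of the age fits. The section was a block in the fits of high spots, for sections with at least 3 of them (2 of each kind for dominant spots). P-values are two-sided and Benjamini-Hochberg adjusted over all genes tested at 0.05. Standard errors are the log2 fold change over the square root of F. Levels are CPM of the section or sum. Named genes were Oxt and Avp, called or defining genes of the lists, and the 10 called genes that rose most and 5 that fell most with at least 50 UMIs in the higher sum and the same direction in every section. The fits were tested on simulated data.

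The alternatives were RLE factors, DESeq2 1.42.0, low counts left in, other thresholds and Leiden resolutions (0.5 and 1.2), slide or section number as a block, all other spots as the comparison and each section left out. Chosen after seeing the data were high spots within hypothalamus-like spots only, within the cluster led by Pmch and Hcrt, and compared spots with under 2 UMIs of each gene. The planned correlation of Oxt with Avp across sections is not given, because the sections fall into 2 separate clusters of 3 and 3, so the relation cannot be tested.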

Additional observations from a re-analysis of the deposited data

How the results depend on the processing

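No alternative called Oxt or Avp by age, and the directions turned with single sections. With slide as a block, middle minus young for Avp was 1.10 in whole sections and 1.59 in hypothalamus-like spots, and old minus middle in hypothalamus-like spots -0.047. With the section number as a block, middle minus young for Avp was 0.26 and 0.24, and old minus young for Oxt in whole sections was 2.49 (SE 1.02, adjusted p = 0.505). Deviations of sections with different ages and number 1 correlated at -0.0189, 0.115 and 0.235 over 16615 genes, so across genes the numbers do not pair the samples. These correlations cannot settle this for Oxt and Avp, in which the sections numbered 1 stand apart from those numbered 2. Leaving out one section in turn moved Oxt in whole sections from -5.42 to 4.87 (middle minus young), -5.44 to 9.21 (old minus young) and -3.89 to 8.21 (old minus middle), and Avp from -3.31 to 4.08, -4.12 to 5.13 and -3.89 to 4.12. In hypothalamus-like spots the ranges were -6.95 to 5.67, -6.89 to 9.81 and -5.34 to 9.58 for Oxt and -3.78 to 4.14, -5.60 to 5.18 and -5.58 to 4.79 for Avp. An age left with 1 section is assumed to vary like the others. The permutation p of high spots ran from 0.2 to 1 for Oxt and 0.267 to 1 for Avp without one section. Calls in Oxt-high spots numbered 235 with DESeq2, 3632 against all other spots and 94 to 1104 without one section. Those in Avp-high spots numbered 234, 3358 and 451 to 877, and 535 within the cluster led by Pmch and Hcrt. Dominant spots gave 0 calls with DESeq2, 11 within hypothalamus-like spots and 0 to 16 without one section. Within that cluster Cck was 0.53 in Oxt-high spots, and Penk 0.18, Cck 0.33, Npy 0.16, Gja1 -0.12 and Acta2 -0.067 in Avp-high spots. Against all other spots Pmch was 0.082 in Oxt-high spots, and Nts 0.93, Fos -0.18 and Pmch 0.035 in Avp-high spots. The causes were not tested. With 3 or 4 sections in the fits of high spots and low counts in their sums, small changes could not be detected at this depth.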
